A study of Homo sapiens with 21 samples.

Results

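The comparison set the A673 Ewing sarcoma cell line with EWS/FLI put back against the same line with EWS/FLI lowered. It used 10 of the 21 RNA sequencing libraries of the series. The 5 knockdown libraries came from cells with RNA interference against EWS/FLI and an empty vector, and the 5 wild-type rescue libraries from cells with the same RNA interference and a vector that expresses full-length type IV EWS/FLI. A further group, used only to place levels, held 4 control libraries with RNA interference against luciferase and an empty vector (replicates 1, 2, 3 and 5). All cells were stably infected, selected for 4 days and then infected a second time with the pMSCV-hygro vector, so the controls carry RNA interference and vector too. The line is a single tumour line, and the labels give no clone. Libraries were paired by replicate number, which the labels call a batch. The labels do not say whether the batches are separate cultures, so p-values measure spread between these libraries, which may be technical. A gene was tested when it reached 10 on the linear scale in at least 3 of the 21 libraries, which kept 18040 of 57820 genes.

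EWS/FLI is the fusion of EWSR1 and FLI1 that drives most Ewing sarcomas. Its FLI1 part binds GGAA, the core of ETS factor sites, and its EWS part recruits chromatin regulators and lets the protein act at repeats of GGAA, where it can turn silent chromatin into active enhancers. It activates one set of genes and represses another that includes many genes of mesenchymal cells, and returning it to depleted cells is the usual way to tell its own effects from side effects of the RNA interference.

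Values are the authors' normalized log2 levels, and differences are wild-type rescue minus knockdown in log2 units, averaged over the 5 pairs and given with their standard error. Adjusted p is the 2-sided limma value after Benjamini-Hochberg over all 18040 genes, and a gene rose or fell when it was under 0.05. The values do not keep library totals, so depth per library is unknown, and 16908 to 17326 genes per library of the 10 were above 10. Fold changes are taken from these log2 values, and if the authors' transformation drew low values together, which the labels do not state, those of low genes are understated. Of 6 listed markers of Ewing sarcoma cells 5 were tested, all but CD99, and all 5 rose. They include NR0B1, a gene known as activated by EWS/FLI, so the rise is not independent evidence of cell state. The mean of the 5 markers was 8.49 to 9.78 in knockdown and 11.62 to 12.12 in wild-type rescue libraries. LIPI lay below that mean in knockdown, at 6.85 to 8.23. The list of 9 fibroblast markers had mean levels of 10.48 to 10.96 in knockdown, 9.14 to 9.80 in wild-type rescue and 7.70 to 8.46 in control libraries. Of those 9 markers 2 rose and 5 fell. Endothelial markers (1 higher and 5 lower of 7 tested) had means of 6.27 to 6.90 in knockdown and 4.73 to 5.75 in rescue libraries, epithelial markers (0 higher and 3 lower of 5) 7.47 to 7.99 and 6.31 to 6.96, and immune cell markers (0 higher and 3 lower of 5) 5.34 to 5.63 and 4.68 to 5.18. Mature neuron markers (2 higher and 1 lower of 6) had means of 4.98 to 5.54 in knockdown and 5.01 to 5.91 in rescue libraries. Skeletal muscle markers (1 higher and 1 lower of 2) had means of 5.46 to 5.86 and 4.96 to 5.94. The part of these markers in the results below was not tested. Whether fewer cells of a state or less RNA per cell underlies any difference cannot be told apart in bulk samples.

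FLI1 gives the fusion its DNA-binding end and was partly restored. It stood at 9.67, 9.84, 9.99, 9.59 and 9.76 in knockdown replicates 1 to 5 and at 10.69, 10.46, 10.35, 10.46 and 10.42 in wild-type rescue replicates 1 to 5. Every rescue library lay above every knockdown library and below the control libraries (11.56 to 11.69). The difference was log2 0.70 ± 0.10 (1.63-fold, adjusted p = 0.000956), higher in 5 of 5 pairs. An exact 2-sided sign-flip test of the pairs gave p = 0.0625, the smallest that 5 pairs allow, and an exact permutation of the 10 libraries between groups gave p = 0.00794, also the smallest possible. Against control FLI1 remained at log2 -1.16 ± 0.07 (adjusted p = 0.000118, n = 4 pairs). EWSR1, the source of the other end of the fusion, was at 13.58, 13.73, 13.75, 13.70 and 13.81 in knockdown and at 14.04, 13.997, 13.93, 13.96 and 13.67 in wild-type rescue libraries. It was higher in 4 of 5 pairs and lower in pair 5, and the groups overlapped. Its difference of log2 0.20 ± 0.09 did not pass (adjusted p = 0.0891, exact sign-flip p = 0.125, exact permutation of libraries p = 0.0397). It passed without replicate 5 (log2 0.29, adjusted p = 0.0114) and without the replicate block (adjusted p = 0.0389). Reads of both genes cannot be divided between the fusion, the construct and the intact alleles.

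**Figure D1:**
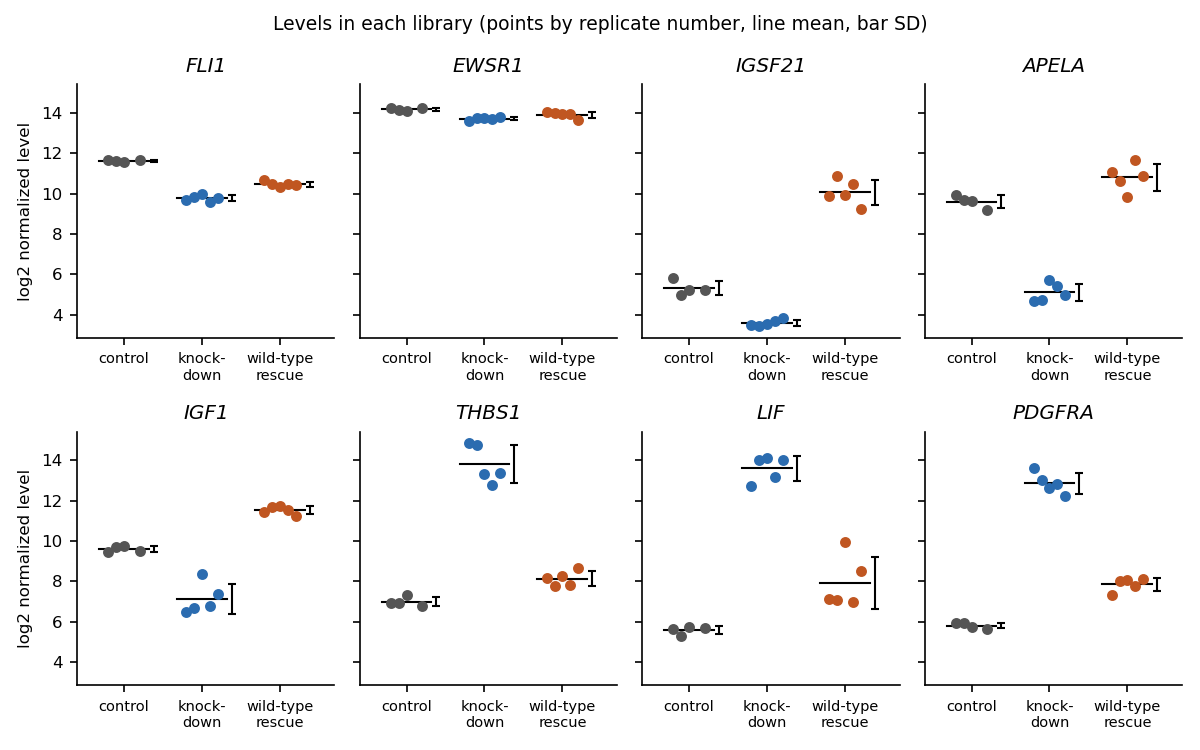
Log2 normalized levels of 8 genes in the 4 control, 5 knockdown and 5 wild-type rescue libraries, with points ordered by replicate number, lines for means and bars for SD. FLI1 was intermediate in the rescue, IGSF21 and IGF1 rose above control, and THBS1, LIF and PDGFRA fell far below knockdown but stayed above control.

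Of 18040 genes, 10115 (56.1%) passed the test, 4685 (26.0%) higher and 5430 (30.1%) lower. At least 2-fold changes favoured falls, with 1219 genes (6.76%) higher and 2296 (12.7%) lower, and at least 16-fold changes were found for 40 higher (0.222%) and 89 lower (0.493%). All 5 rescue libraries lay above all 5 knockdown libraries for 3600 genes (20.0%) and below them for 4076 (22.6%), and 58.4% of genes moved one way in all 5 pairs. The balance of directions depended on scaling. Higher calls were 46.3% of all calls as deposited, 62.0% with median scaling, which moved the median difference of all genes from 0.01 to 0.16, and 58.9% with quantile scaling (0.12). Changes below are given on the scale as deposited. Counts of list members below stand against the 26.0% higher and 30.1% lower of all tested genes.

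**Figure D2:**
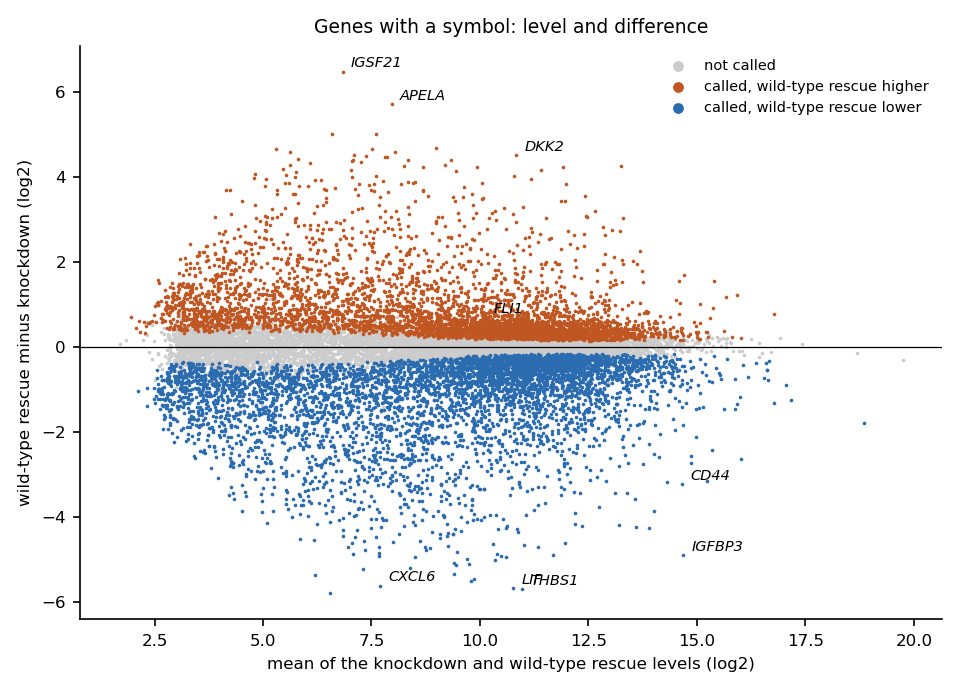
Difference between wild-type rescue and knockdown (log2, y axis) against the mean of both group levels (log2, x axis) for tested genes with a symbol, coloured by call. Falls reach -5.68 for THBS1 among genes of high level, and the rise of IGSF21 (6.48) stands above all other rises.

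The largest rise was that of IGSF21, an immunoglobulin superfamily gene of synaptic adhesion. It was at 3.48, 3.44, 3.52, 3.71 and 3.83 in the knockdown libraries and at 9.86, 10.86, 9.92, 10.48 and 9.26 in the wild-type rescue libraries. No library of either group came near the other, and the control libraries (4.996 to 5.84) lay between, closer to knockdown. The difference was log2 6.48 ± 0.26 (89.0-fold, adjusted p = 1.06e-05). APELA, which encodes a ligand of the apelin receptor, was at 4.70, 4.74, 5.71, 5.41 and 4.99 in knockdown and 11.08, 10.63, 9.83, 11.66 and 10.88 in rescue libraries. Its rise of log2 5.71 ± 0.31 (adjusted p = 1.99e-05) carried it past control (9.19 to 9.95) in 4 of 5 rescue libraries. For both genes the groups did not overlap.

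The other largest rises by the rule for named genes covered several functions. The cytochrome P450 gene CYP4F22, known for skin lipid synthesis, rose by log2 4.67 ± 0.28, ISM2, a secreted isthmin, by 4.67 ± 0.36, and GPR174, a lysophosphatidylserine receptor of lymphocytes, by 4.58 ± 0.28. The synaptic vesicle gene SV2B rose by 4.52 ± 0.31, the cortical homeobox gene CUX2 by 4.49 ± 0.23, the stereocilium gene LOXHD1 by 4.47 ± 0.35 and the desmosomal plakophilin gene PKP2 by 4.46 ± 0.41. DKK2, a modulator of Wnt receptors, stood at 8.22, 7.93, 9.08, 8.63 and 9.01 in knockdown and 13.03, 13.46, 13.27, 12.92 and 12.75 in rescue libraries (log2 4.51 ± 0.23, adjusted p = 1.57e-05). IGF1, a growth factor for Ewing sarcoma cells, stood at 6.47, 6.67, 8.35, 6.76 and 7.36 and 11.43, 11.66, 11.72, 11.55 and 11.24 (log2 4.40 ± 0.25, adjusted p = 2.24e-05). Knockdown replicate 3 was the highest knockdown library for both genes, and rescue values spanned less than knockdown values. Adjusted p for these 9 genes ran from 1.57e-05 (DKK2) to 0.000109 (PKP2), and all rose in 5 of 5 pairs.

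Among genes with a mean of at least 100 on the linear scale, the largest fall was that of THBS1. THBS1, the matrix glycoprotein thrombospondin-1, was at 14.84, 14.75, 13.31, 12.79 and 13.37 in knockdown libraries and at 8.15, 7.76, 8.24, 7.83 and 8.67 in wild-type rescue libraries. Knockdown replicates 1 and 2 were the highest, and no library overlapped. The fall was log2 -5.68 ± 0.35 (51.3-fold, adjusted p = 2.75e-05). LIF, a cytokine of the IL6 family, was at 12.73, 14.01, 14.10, 13.17 and 13.99 and 7.14, 7.08, 9.92, 6.96 and 8.53 (log2 -5.67 ± 0.34, adjusted p = 2.48e-05). Rescue replicate 3 was the highest rescue library and still below all knockdown libraries. CXCL6, a neutrophil chemokine, was at 7.82, 11.01, 12.20, 10.63 and 10.89 and 4.37, 4.94, 6.73, 4.11 and 4.39 (log2 -5.60 ± 0.43, adjusted p = 5.19e-05), with knockdown replicate 1 far below the other knockdown libraries. SPP1, the osteopontin gene, fell from 11.84 to 13.12 in knockdown to 6.11 to 7.74 in rescue libraries (log2 -5.44 ± 0.32). PDGFRA, a receptor of fibroblasts, fell from 12.23 to 13.60 in knockdown to 7.31 to 8.10 in rescue libraries (log2 -5.005 ± 0.27). GALNT5, an enzyme of mucin-type glycosylation, changed by -5.21 ± 0.27, CYGB, the cytoglobin gene, by -5.20 ± 0.41, and SLC14A1, a urea transporter, by -5.12 ± 0.51. Each of these genes fell in 5 of 5 pairs with groups that did not overlap.

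Genes known as activated by EWS/FLI rose in most cases (40 higher and 7 lower of 53 tested, median log2 1.79, against 26.0% of all tested genes higher and a median of 0.01). The list holds genes known from Ewing sarcoma lines and is not independent evidence of its direction. CCK, the cholecystokinin gene, rose by 4.36 ± 0.42, CALCB, a calcitonin gene-related peptide, by 4.39 ± 0.32, and NR0B1, an orphan nuclear receptor needed for Ewing sarcoma growth, by 1.96 ± 0.23. NR0B1 stood at 8.45, 9.27, 10.39, 9.29 and 9.84 in knockdown and 11.29, 11.19, 11.50, 11.65 and 11.41 in rescue libraries, where knockdown replicate 3 was the highest of its group. Members that fell were led by LINC00511 (-1.82 ± 0.22), a long noncoding RNA, UPP1 (-1.47 ± 0.22), a uridine phosphorylase, and KIT (-1.004 ± 0.21), a stem cell factor receptor. CCND1, the cyclin D1 gene, did not pass (log2 0.20 ± 0.09, adjusted p = 0.0998, higher in 5 of 5 pairs, and called higher under median and quantile scaling), nor did MYC (log2 -0.06 ± 0.09, adjusted p = 0.612, and positive under median scaling, quantile scaling and without replicate 5). EZH2, the Polycomb methyltransferase, rose by 0.62 ± 0.10 and SOX2, a stem cell factor, by 0.98 ± 0.13. Genes known as repressed fell (2 higher and 23 lower of 26, median -1.98, against 30.1% of all genes lower), and the exceptions were TSC22D3 (0.61 ± 0.21) and NFIB (0.40 ± 0.12). The repressed list too holds genes known from Ewing sarcoma and is not independent evidence of its direction. FOXO1, a forkhead factor, passed with a small difference (log2 -0.35 ± 0.11, adjusted p = 0.0312), and not without the replicate block, in the fits on all 21 libraries or under either scaling.

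**Figure D3:**
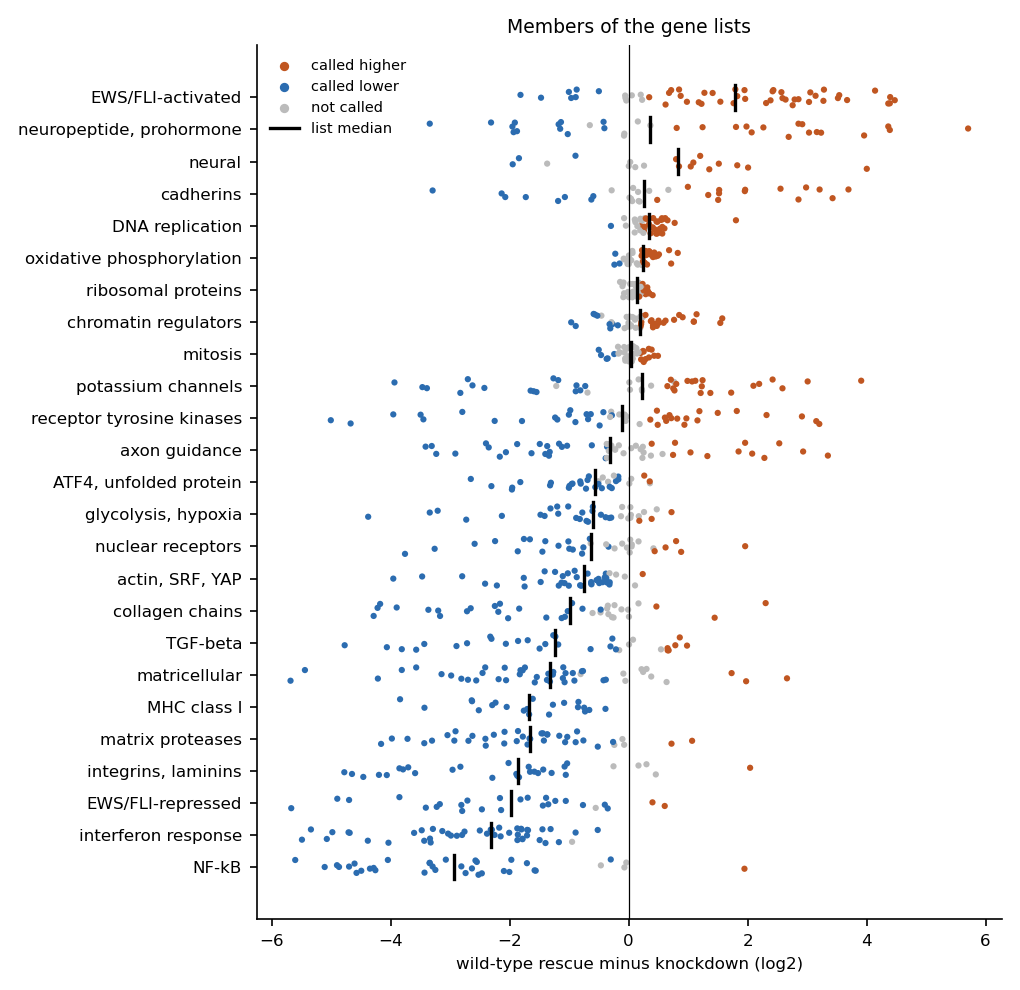
Differences between wild-type rescue and knockdown (log2, x axis) for the tested members of 25 gene lists (rows), coloured by call, with the list median as a black bar. Matrix, interferon and NF-kB lists lie left of 0, EWS/FLI-activated genes right of it, and channel, kinase and guidance lists spread to both sides.

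Genes of neural signalling moved in both directions. Of 33 tested neuropeptide ligand, processing and receptor genes, 16 rose and 12 fell (median 0.37). Rises included PCSK2, a prohormone convertase, at 8.41, 8.68, 10.18, 9.23 and 9.45 in knockdown and 13.06, 13.48, 13.11, 13.35 and 12.72 in rescue libraries (log2 3.96 ± 0.28, adjusted p = 3.85e-05). GRP, gastrin-releasing peptide (3.16 ± 0.18), NPY, neuropeptide Y (2.85 ± 0.15), its receptor NPY1R (3.03 ± 0.37) and CHGA, a granin of secretory granules (2.92 ± 0.28), rose too. Falls included ADM, adrenomedullin (-3.34 ± 0.24), the granin CHGB (-2.31 ± 0.30) and APLN (-1.95 ± 0.20), the other ligand of the receptor that APELA binds. CALCA and CALCB are near-identical in part, so their reads are uncertain. Of 18 neural markers 10 rose and 3 fell (median 0.82), with SYNPR, a synaptic vesicle protein (4.003 ± 0.48), and ISL1, a homeobox factor of motor neurons (2.01 ± 0.12), higher. NCAM1 (-1.84 ± 0.19), NES (-1.95 ± 0.20) and TUBB3 (-0.89 ± 0.16) were lower, so adhesion, progenitor filament and tubulin markers went the other way. Of 6 tested mature neuron markers 2 rose and 1 fell (median 0.14), and their list mean changed by -0.54 to 0.74 over the 5 pairs.

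Potassium channel genes split (19 higher and 16 lower of 44 tested). KCNH5, a voltage-gated channel, stood at 5.25 to 7.01 in knockdown and 9.23 to 10.23 in rescue libraries (log2 3.91 ± 0.21), whereas KCNMA1, the large-conductance calcium-activated channel, went the other way (log2 -3.94 ± 0.21), as did KCNN4, a calcium-activated channel of blood cells and fibroblasts (-3.39 ± 0.34). Cadherins and protocadherins rose more often than they fell (14 higher and 8 lower of 32, median 0.27), led by PCDH8 (3.69 ± 0.34), CDH12 (3.43 ± 0.28) and PCDH11X (3.21 ± 0.11), adhesion genes of the nervous system. CDH13, a cadherin anchored by a lipid, was at 13.58, 13.60, 13.60, 13.47 and 13.33 in knockdown and 9.67, 9.96, 10.68, 9.94 and 10.86 in rescue libraries (log2 -3.29 ± 0.20, adjusted p = 2.55e-05). Axon guidance genes leaned lower (12 higher and 21 lower of 50, median -0.31), but less so under scaling. With median scaling 17 rose and 19 fell, and with quantile scaling 16 rose and 20 fell. The semaphorin receptors PLXNA2 (-3.41 ± 0.21) and PLXNA4 (-3.23 ± 0.30) and the ligand SEMA7A (-3.31 ± 0.24) fell, and all 4 PLXNA genes tested fell. The netrin receptor UNC5A (3.35 ± 0.23), the Slit receptor ROBO2 (2.93 ± 0.10) and the ephrin EFNB1 (2.53 ± 0.17) rose, while ROBO1 did not pass (-0.37 ± 0.14, adjusted p = 0.0524) but was called lower without the replicate block, in both fits on all 21 libraries, with array weights and without replicate 2. With a stricter level filter (a mean of at least 100 on the linear scale) 8 potassium channels rose and 6 fell.

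Matrix and adhesion genes fell in each of the lists below. Of 36 collagen chains 3 rose and 21 fell (median -0.99). COL6A2, a chain of the microfibrillar type VI collagen, was at 15.40, 15.54, 15.67, 15.74 and 16.22 in knockdown and 10.89, 11.20, 12.44, 11.16 and 11.80 in rescue libraries (log2 -4.22 ± 0.19, adjusted p = 1.26e-05). COL6A1 (-4.18 ± 0.20), COL6A3 (-3.90 ± 0.23) and the transmembrane collagen gene COL13A1 (-4.29 ± 0.29) also fell. COL21A1 (2.30 ± 0.20), COL25A1 (1.45 ± 0.24) and COL11A2 (0.47 ± 0.15) rose, the last of which did not pass without the replicate block or without any 1 of replicates 1 to 4. Enzymes that hydroxylate, fold or cross-link collagen fell (0 higher and 23 lower of 26, median -1.46). LOX, the lysyl oxidase that cross-links collagen, was at 13.61, 13.66, 13.76, 14.06 and 14.30 in knockdown and 10.16, 10.02, 10.72, 10.21 and 11.24 in rescue libraries (log2 -3.41 ± 0.13), and LOXL4 (-4.01 ± 0.37), LOXL2 (-3.16 ± 0.17) and the prolyl hydroxylase subunit P4HA3 (-3.13 ± 0.19) fell with it. Matricellular and glycoprotein genes fell (3 higher and 36 lower of 47, median -1.32), among them LTBP2 (-3.81 ± 0.12) and the fibronectin gene FN1 (-1.78 ± 0.15). DCN, the decorin gene (2.66 ± 0.27), and MFAP4, a microfibril protein (1.98 ± 0.15), rose, as did 1 other member.

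Integrin and laminin subunits fell (1 higher and 25 lower of 30, median -1.86), led by the collagen receptor subunit ITGA10 (-4.78 ± 0.36), the laminin chain LAMA4 (-4.65 ± 0.24), ITGA8 (-4.46 ± 0.23) and ITGA3 (-4.20 ± 0.32). ITGA7, a laminin receptor subunit of muscle, was the only member that rose (2.04 ± 0.16). Matrix proteases and their inhibitors fell (2 higher and 34 lower of 39, median -1.67), including the plasminogen activator PLAT (-4.16 ± 0.22), ADAM12 (-3.98 ± 0.18) and the collagenase MMP1 (-2.62 ± 0.29). CTSK (1.07 ± 0.20) and ADAMTS4 (0.72 ± 0.10) rose. Actin cytoskeleton genes and targets of SRF and YAP fell in 35 of 40 cases by smaller amounts (1 higher, median -0.74), among them AXL (-3.96 ± 0.27), a receptor kinase, ANKRD1 (-3.47 ± 0.25), a YAP target, TPM1 (-2.80 ± 0.14), a tropomyosin, and FHL2 (-2.41 ± 0.14), a LIM protein. PDLIM5 was the member that rose (0.24 ± 0.06). Caveolae genes split, since the coat proteins CAVIN1 (-1.93 ± 0.17) and CAVIN3 (-2.42 ± 0.33) fell and CAV1 (1.18 ± 0.15) and CAV2 (1.49 ± 0.13) rose. Of 21 mesenchymal factors and markers 15 fell and 3 rose. ZEB1, a mesenchymal transition factor, was at 12.32, 11.67, 11.66, 11.66 and 11.51 in knockdown and 8.84, 7.44, 8.72, 8.07 and 9.11 in rescue libraries (log2 -3.33 ± 0.24), while its paralog ZEB2 was at 13.42 to 13.70 in knockdown and 14.07 to 14.27 in rescue libraries (log2 0.62 ± 0.06).

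Promoter letters were read for gene lists with enough entries, whether or not their members moved together. The windows came from RefSeq and ran from 250 bases before to 50 after the start site on GRCh38.p14. Single windows are shown because they hold motifs of the factor families named above and below, and capitals mark the motif. Of the 21 promoters of repressed genes with an entry, 1 (4.76%) held GGAA in tandem (GGAAGGAA, both strands), against 4.5% of all 27305 genes with a window, and 3 copies were in 0.0952% of genes. LOXHD1, which rose, and ITGA10, which fell, each hold 2 copies in the window shown, on the strand opposite to the gene for ITGA10. LOXHD1 has 4 windows and ITGA10 has 1. Where a gene has several windows, the one shown was taken among those that hold the motif.
LOXHD1 (chr18:46657171-46657470, minus strand): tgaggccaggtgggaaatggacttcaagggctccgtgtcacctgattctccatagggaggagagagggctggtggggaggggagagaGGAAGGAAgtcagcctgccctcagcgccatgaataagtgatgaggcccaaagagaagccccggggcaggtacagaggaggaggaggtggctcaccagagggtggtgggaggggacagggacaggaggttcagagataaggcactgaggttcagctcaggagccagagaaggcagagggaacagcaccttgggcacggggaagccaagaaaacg
ITGA10 (chr1:145910001-145910300, minus strand): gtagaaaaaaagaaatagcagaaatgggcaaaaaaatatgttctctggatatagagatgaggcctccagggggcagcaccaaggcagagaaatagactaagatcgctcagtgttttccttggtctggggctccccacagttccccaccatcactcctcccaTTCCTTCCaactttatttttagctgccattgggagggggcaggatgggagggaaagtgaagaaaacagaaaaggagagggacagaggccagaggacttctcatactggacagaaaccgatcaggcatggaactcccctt
The CArG box, the site of SRF, was found on either strand in 9 of 34 actin and SRF/YAP promoters (26.5%), against 1.6% of all genes. The TEAD core GGAATG, which begins with GGAA and so overlaps GGAA counts, was in 16 of 34 (47.1%), against 16.7%. FHL2 has 4 windows, and the one shown holds a CArG box.
FHL2 (chr2:105438480-105438779, minus strand): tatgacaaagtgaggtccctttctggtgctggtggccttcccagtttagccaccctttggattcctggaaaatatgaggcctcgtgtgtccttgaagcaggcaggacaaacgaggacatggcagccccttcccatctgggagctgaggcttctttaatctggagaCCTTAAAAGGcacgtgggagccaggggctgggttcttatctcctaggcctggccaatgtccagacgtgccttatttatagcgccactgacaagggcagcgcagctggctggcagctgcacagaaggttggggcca
A match is a description of letters and not of binding.

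Interferon-stimulated genes fell as a group. Of 46 tested, 45 fell and 0 rose (median -2.31), and the member that did not pass was IFITM2 (log2 -0.95). XAF1, an interferon-induced factor that promotes cell death, was at 12.06, 12.47, 13.33, 12.63 and 12.24 in knockdown and 5.12, 7.32, 11.33, 5.21 and 6.30 in rescue libraries (log2 -5.49 ± 0.70, adjusted p = 0.000472). MX2, an antiviral GTPase, was at 11.74, 11.83, 13.31, 11.96 and 11.53 and 5.11, 6.21, 11.35, 4.87 and 6.15 (log2 -5.34 ± 0.66, adjusted p = 0.000414). Rescue replicate 3 was the highest rescue library for both genes, and the other 4 rescue libraries were far below knockdown. OAS2, an antiviral RNA sensor (-5.07 ± 0.68), IFI27 (-4.98 ± 0.66), MX1 (-4.69 ± 0.76) and IFIT1 (-3.33 ± 0.60) fell too, with rescue replicate 3 the highest rescue library for each and inside the knockdown range for the last 3. The list mean differed between pairs, at -3.75, -2.37, -0.91, -3.68 and -2.54 in pairs 1 to 5. Its level was 8.41, 9.62, 11.93, 8.55 and 9.35 in rescue replicates 1 to 5, 11.89 to 12.83 in knockdown and 7.89 to 8.36 in control libraries. Without replicate 3, 46 of 46 members fell, with a median of -2.75. What set rescue replicate 3 apart was not tested.

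All 21 tested genes of MHC class I presentation fell (median -1.67). Without replicate 3, 20 fell, with a list median of -1.84. HLA-B, a class I heavy chain, was at 15.31, 16.18, 16.36, 15.64 and 16.21 in knockdown and 10.99, 11.96, 14.95, 10.95 and 11.66 in rescue libraries (log2 -3.84 ± 0.45, adjusted p = 0.000322). Rescue replicate 3 was again the highest of its group, and the groups did not overlap. The peptide transporter TAP1 (-2.64 ± 0.32), the immunoproteasome subunit PSMB9 (-2.63 ± 0.35) and HLA-C (-2.52 ± 0.23) fell. Reads of HLA genes are uncertain, since they are near-identical and vary between genomes. NF-kB, chemokine and inflammation genes fell in 32 of 36 cases and rose in 1 (median -2.94, 32 without replicate 3). CXCL1 (-5.11 ± 0.32), CXCL8 (-4.26 ± 0.30), CCL2 (-4.35 ± 0.54), which attract leukocytes, the adhesion receptor VCAM1 (-4.49 ± 0.58) and the subunit NFKB1 (-2.004 ± 0.30) fell. CSF2, a growth factor of granulocytes and macrophages (-4.87 ± 0.40), and TNFSF15 (-4.90 ± 0.40) fell, and TNFAIP6, a hyaluronan-binding protein, rose (1.95 ± 0.11). The list mean was 7.63, 8.07, 10.16, 7.38 and 8.16 in rescue and 10.01, 11.47, 11.92, 10.99 and 11.42 in knockdown replicates 1 to 5, so rescue replicate 3 was the highest rescue and knockdown replicate 1 the lowest knockdown library.

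**Figure D4:**
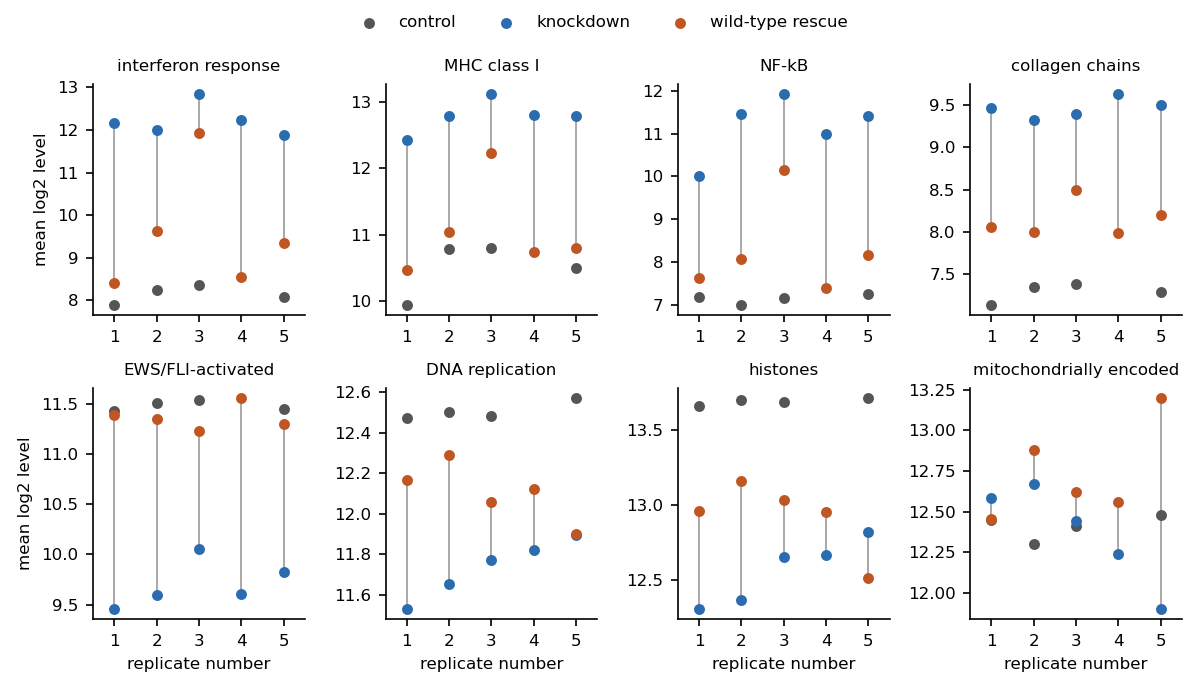
Mean log2 levels of 8 gene lists (panels, each with its own y axis that does not start at 0) by replicate number, with a grey line from knockdown to wild-type rescue in each pair and control libraries for replicates 1, 2, 3 and 5. The interferon mean of rescue replicate 3 (11.93) lies near its knockdown partner (12.83), and the histone mean falls in pair 5 only.

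The interferon element (GAAA, any 2 bases, GAAA, on either strand) was found in 11 of 17 promoters of the MHC class I list with an entry (64.7%), against 4.38% of all genes with a window. The interferon list itself had entries for 76.1% of its genes, under the 80% needed, so its share is void, but the window of IFI27 is shown as an example. The NF-kB site (GGG, any 2 bases, TTTCC, on either strand) was found in 13 of 30 NF-kB list promoters (43.3%), against 2.33%, among them CXCL1, CXCL6 and IL6. Its reverse strand holds GGAA, so it adds to GGAA counts.
IFI27 (chr14:94110486-94110785, plus strand): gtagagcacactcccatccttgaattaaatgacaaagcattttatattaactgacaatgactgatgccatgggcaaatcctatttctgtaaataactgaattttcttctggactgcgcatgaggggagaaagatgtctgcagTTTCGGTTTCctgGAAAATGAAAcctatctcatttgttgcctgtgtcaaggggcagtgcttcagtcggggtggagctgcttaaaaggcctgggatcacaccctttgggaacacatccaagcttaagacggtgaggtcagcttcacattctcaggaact
TAP1 (chr6:32853655-32853954, minus strand): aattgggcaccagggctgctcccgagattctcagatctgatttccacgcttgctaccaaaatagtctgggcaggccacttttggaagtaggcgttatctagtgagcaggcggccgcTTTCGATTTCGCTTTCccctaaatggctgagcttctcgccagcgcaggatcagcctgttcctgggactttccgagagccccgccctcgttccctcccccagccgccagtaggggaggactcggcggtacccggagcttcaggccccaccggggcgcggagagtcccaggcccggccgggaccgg
CXCL6 (chr4:73836428-73836727, plus strand): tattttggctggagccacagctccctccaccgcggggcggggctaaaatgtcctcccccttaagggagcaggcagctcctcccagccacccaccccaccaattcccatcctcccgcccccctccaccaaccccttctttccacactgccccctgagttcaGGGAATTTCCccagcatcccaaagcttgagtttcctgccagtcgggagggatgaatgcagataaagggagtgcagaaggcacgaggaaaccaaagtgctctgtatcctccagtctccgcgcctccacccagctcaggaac
In the windows shown TAP1 holds 2 overlapping matches that run together, and IFI27 holds 2 apart. Both of these genes have 2 windows.

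In the insulin-like growth factor axis the ligand IGF1 rose as given above and the receptor IGF1R fell (-0.42 ± 0.11), while all 7 binding proteins IGFBP1 to IGFBP7, which hold the ligand, fell. IGFBP1 changed by log2 -5.78 ± 0.29, with rescue libraries at 3.50, 3.09, 3.54, 3.60 and 4.53, all below the knockdown libraries. IGFBP3 was at 16.64, 17.25, 17.46, 17.50 and 16.83 and 11.16, 11.38, 13.14, 12.24 and 13.27 (log2 -4.90 ± 0.31). IGFBP7 (-4.21 ± 0.15), IGFBP6 (-3.27 ± 0.17) and IGFBP5 (-2.29 ± 0.28) fell too, and the adaptor IRS2 (1.97 ± 0.10) and the binding protein protease PAPPA (1.45 ± 0.27) rose. Of the 20 genes in the axis 5 rose and 13 fell. Receptor tyrosine kinases split into 18 that rose and 19 that fell of 44 (median -0.11, and 0.05 with median scaling). EGFR was at 12.04, 11.20, 11.43, 11.40 and 11.88 in knockdown and 6.75, 6.70, 7.78, 5.97 and 7.40 in rescue libraries (log2 -4.67 ± 0.25), whereas its relative ERBB4 was at 8.07, 8.63, 9.21, 8.75 and 8.87 and 11.47, 12.11, 12.07, 11.85 and 11.80 (log2 3.15 ± 0.11). MET (-2.79 ± 0.17) and NTRK2 (-3.45 ± 0.57) fell, and EPHA5 (2.91 ± 0.17), RET (1.498 ± 0.18) and ALK (1.19 ± 0.30) rose.

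Cytokines of the IL6 family fell at the ligand level, with IL6 (-4.70 ± 0.39), IL11 (-4.11 ± 0.31) and CLCF1 (-3.19 ± 0.21) lower beside LIF. The receptor subunits CNTFR (1.80 ± 0.23) and IL11RA (0.84 ± 0.23) and the kinase JAK1 (0.68 ± 0.07) rose. The list had 5 higher and 11 lower of 19, against 26.0% and 30.1% of all tested genes. In the TGF-beta list (6 higher and 21 lower of 31, median -1.23) the antagonist FST (-4.77 ± 0.21), the activin subunit INHBA (-4.06 ± 0.28), the latency protein LTBP1 (-3.57 ± 0.16), the receptor TGFBR2 (-1.70 ± 0.13) and the mediator SMAD3 (-2.06 ± 0.11) fell, and the activin receptors ACVR1B (0.98 ± 0.10) and ACVR2B (0.86 ± 0.11) rose. BMP genes leaned lower (5 higher and 11 lower of 22, against 26.0% and 30.1% of all tested genes). The antagonist GREM1 (-4.43 ± 0.45) and the ligand BMP4 (-3.35 ± 0.39) were lower and SMAD9 (1.87 ± 0.14) and the inhibitor of differentiation gene ID4 higher. ID4 was at 11.13, 11.21, 11.21, 11.16 and 11.10 in knockdown and 12.37, 12.48, 12.57, 12.44 and 12.49 in rescue libraries (log2 1.31 ± 0.06, adjusted p = 1.15e-05), and its rescue values spanned a narrow range. Wnt genes leaned lower as well (5 higher and 15 lower of 26, median -0.90), with the ligands WNT5B (-3.91 ± 0.17) and WNT7B (-3.70 ± 0.26) and the antagonist SFRP1 (-4.24 ± 0.57) down and the antagonists DKK2, APCDD1 (3.20 ± 0.23) and NKD2 (2.60 ± 0.18) up. In the hedgehog list (4 higher and 2 lower of 12) the effector GLI1 (2.76 ± 0.15) and the receptor PTCH1 (1.45 ± 0.11) rose, GLI2 (-0.70 ± 0.17) and the coreceptor BOC (-2.46 ± 0.28) fell, and 6 members did not pass. The hedgehog rises were near the 26.0% of all tested genes that rose, and the falls were below the 30.1% that fell.

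Of 47 DNA replication genes 30 rose and 1 fell (median 0.34). E2F2, an activator of S phase genes, was at 9.05, 9.15, 9.65, 9.73 and 10.02 in knockdown and 11.47, 11.79, 11.34, 11.22 and 10.80 in rescue libraries (log2 1.80 ± 0.25, adjusted p = 0.000716). The polymerase gene POLE (0.77 ± 0.09), the primase PRIM1 (0.65 ± 0.15), the chromatin assembly factor CHAF1A (0.61 ± 0.09) and the helicase subunits MCM2 (0.48 ± 0.11) and MCM6 (0.58 ± 0.14) rose, and the thymidine kinase gene TK1 fell (-0.30 ± 0.08). The list mean was 0.64, 0.63, 0.28, 0.30 and 0.01 in pairs 1 to 5, so it was near 0 in pair 5, and 19 members rose without replicate 1. Of 43 mitosis genes 11 were called higher and 5 lower (median 0.04), against 26.0% higher and 30.1% lower of all tested genes, with PLK1 (0.49 ± 0.08) and BUB1B (0.43 ± 0.06) higher and ANLN (-0.50 ± 0.06) and FOXM1 (-0.46 ± 0.08) lower. That count was 22 higher with median and 19 with quantile scaling. Among 23 cyclins and kinase inhibitors 3 rose and 5 fell, a balance that reversed to 7 higher and 2 lower with median and 6 higher and 2 lower with quantile scaling. CCNA1, the germline cyclin, was at 7.003, 7.57, 8.29, 7.24 and 7.87 in knockdown and 8.53, 9.37, 9.74, 9.14 and 9.53 in rescue libraries (log2 1.67 ± 0.11), CDK6 at 12.85, 12.71, 13.48, 13.18 and 13.66 and 11.60, 11.36, 12.35, 10.95 and 11.71 (log2 -1.58 ± 0.17), and the inhibitor CDKN1A fell (-1.39 ± 0.13). Of 18 replication-dependent histones 5 were called higher, near the share of all tested genes (26.0%), and 0 lower, and 15 were called higher without replicate 5, whose pair mean was -0.31. Histone genes share reads and are uncertain. The E2F site TTTNGCGC (both strands) was found in 17 of 39 replication promoters (43.6%), against 2.17% of all genes, and the cell cycle homology region TTTGAA in 27 of 36 mitosis promoters (75.0%), against 18.2%.
E2F2 (chr1:23531184-23531483, minus strand): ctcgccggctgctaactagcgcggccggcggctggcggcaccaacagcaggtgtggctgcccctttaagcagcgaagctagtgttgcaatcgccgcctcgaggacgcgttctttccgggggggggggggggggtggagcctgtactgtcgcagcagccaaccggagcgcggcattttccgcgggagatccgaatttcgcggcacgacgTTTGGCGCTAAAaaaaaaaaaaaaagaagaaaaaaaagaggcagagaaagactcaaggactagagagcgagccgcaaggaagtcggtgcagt
In the E2F2 window, 2 matches on opposite strands overlap, with the first at position -42 from the start site.

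Nuclear-encoded subunits of oxidative phosphorylation rose in 26 and fell in 3 of 43 cases (median 0.24), including COX7C (0.83 ± 0.10), NDUFA4 (0.71 ± 0.11) and the core subunit UQCRC2 (0.51 ± 0.07). Glycolysis and hypoxia genes fell (3 higher and 22 lower of 34, median -0.60), with CA12, a carbonic anhydrase (-4.38 ± 0.21), EPAS1, a hypoxia factor (-3.21 ± 0.21), NDRG1 (-2.73 ± 0.33), VEGFA (-1.41 ± 0.14) and the glucose transporter SLC2A1 (-1.48 ± 0.14) lower, and PFKM (0.72 ± 0.09) and LDHB (0.39 ± 0.09) higher. ATF4, unfolded protein and tRNA synthetase genes fell in 24 and rose in 2 of 33 cases (median -0.56). DDIT4, a stress-induced inhibitor of mTOR, was at 11.73, 12.06, 11.59, 11.39 and 10.86 in knockdown and 8.76, 8.77, 9.44, 8.93 and 8.48 in rescue libraries (log2 -2.65 ± 0.17), and SESN2 (-2.31 ± 0.25) and WARS1, a tRNA synthetase that interferon also induces (-1.96 ± 0.14), fell. Sterol and fatty acid synthesis genes split (12 higher and 5 lower of 31, and 7 higher without replicate 2). FASN, the fatty acid synthase gene, rose (0.43 ± 0.12), whereas the sterol sensor partner INSIG1 fell (-1.43 ± 0.08). Serine and one-carbon enzymes (4 higher and 6 lower of 22) were called no more often than all tested genes (26.0% and 30.1%). These enzymes turned in balance with scaling, to 11 higher and 5 lower with median and 11 higher and 6 lower with quantile scaling. They included GLDC, of glycine cleavage (-3.15 ± 0.38), and ALDH1L2 (-1.64 ± 0.15), both lower. Amino acid transporters were mixed (6 higher and 12 lower of 26, against 26.0% and 30.1% of all tested genes). SLC1A2, a glutamate transporter (-2.35 ± 0.25), was lower and SLC43A1 (1.87 ± 0.26) higher.

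Of 42 ribosomal protein genes 10 were called higher, no larger a share than the 26.0% of all tested genes, and 0 lower (median 0.14), but 30 rose with median and 34 with quantile scaling, and 3 to 5 rose without replicate 1, 2 or 4. RPS15 (0.40 ± 0.07) and RPL5 (0.35 ± 0.10) were the largest of these, and near-identical copies make their reads uncertain. Of 13 mitochondrially encoded genes 4 rose, near the share of all tested genes (26.0%), and 0 fell, against 30.1% of all. MT-CO2 was at 13.75, 13.80, 13.66, 13.76 and 13.31 in knockdown and 13.86, 14.35, 14.19, 14.10 and 14.07 in rescue libraries (log2 0.46 ± 0.10). The list mean was -0.13, 0.21, 0.17, 0.32 and 1.29 in pairs 1 to 5, and pair 5 stood apart with rescue replicate 5 at 13.20 and knockdown replicate 5 at 11.90. Among genes often used as references, YWHAZ fell (-0.90 ± 0.08) and HPRT1 rose (0.35 ± 0.10) (2 higher and 6 lower of 17, but 5 higher and 3 lower with median and 8 higher and 2 lower with quantile scaling). FOXO factors and targets leaned lower (2 higher and 13 lower of 20), with KLF9 (-3.01 ± 0.31) and SOD2 (-2.57 ± 0.26) down and FOXO4 (1.55 ± 0.27) up. SOD2 is also a member of the NF-kB list.

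Of 23 ETS family genes 6 rose and 12 fell. FEV, a factor of serotonin neurons, was at 3.53, 3.49, 3.68, 3.47 and 3.79 in knockdown and 8.41, 8.14, 7.54, 8.64 and 7.38 in rescue libraries (log2 4.43 ± 0.25, adjusted p = 2.24e-05). ETS1 was at 13.46, 13.64, 13.55, 13.46 and 14.19 and 10.75, 10.37, 11.79, 11.20 and 11.54 (log2 -2.53 ± 0.19, adjusted p = 5.01e-05), and EHF, an epithelial factor, at 7.11, 10.65, 8.998, 6.90 and 6.93 and 3.18, 3.24, 4.81, 3.30 and 3.52 (log2 -4.51 ± 0.55). Both groups were separate for all 3 genes, and knockdown replicate 2 was the highest for EHF. ETV7 (-2.68 ± 0.25) fell and ETS2 (0.72 ± 0.17) rose. Of 9 HOXD genes 8 rose, including HOXD9, at 8.93, 8.63, 9.15, 8.85 and 8.59 in knockdown and 10.04, 10.40, 10.22, 10.22 and 10.25 in rescue libraries (log2 1.40 ± 0.12), HOXD3 (1.44 ± 0.17) and HOXD13 (1.27 ± 0.12), and HOXD1 fell (-0.63 ± 0.19). Of 9 HOXB genes 8 fell, including HOXB9 (-1.599 ± 0.20) and HOXB8 (-1.36 ± 0.23), and HOXB13 rose (0.60 ± 0.10). In the HOXC cluster 2 rose, among them HOXC13 (1.47 ± 0.24), 2 fell and 5 did not pass.

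Other homeobox and PAX factors went both ways (24 higher and 20 lower of 51). POU3F1 (3.14 ± 0.23), ALX4 (3.09 ± 0.15), the muscle stem cell factor PAX7 (3.05 ± 0.33), NKX2-2 (2.31 ± 0.15) and OTX2 (2.26 ± 0.17) rose, and the limb mesenchyme factor PRRX1 (-3.11 ± 0.28) and POU2F2 (-2.66 ± 0.31) fell. SOX factors (7 higher and 4 lower of 14) included SOX1 (2.36 ± 0.26) and SOX4 (1.19 ± 0.10), which rose, and SOX17 (-2.71 ± 0.33), SOX9 (-1.59 ± 0.15) and SOX5 (-1.14 ± 0.15), which fell. Nuclear receptors leaned lower (5 higher and 17 lower of 33, median -0.64). NR2F1 (-3.76 ± 0.19), the retinoic acid receptor RARB (-3.26 ± 0.26) and PPARA (-2.24 ± 0.20) fell, whereas NR2F2, the paralog of NR2F1, rose (0.80 ± 0.13). Among Polycomb, BAF and NuRD genes 23 rose and 9 fell of 50 (median 0.20, 5 lower with median scaling). SMARCC1, a core BAF subunit, was at 12.30, 12.36, 12.68, 12.52 and 12.61 in knockdown and 13.94, 14.17, 14.05, 14.12 and 13.88 in rescue libraries (log2 1.54 ± 0.09, adjusted p = 2.2e-05), and CHD3 of NuRD (1.57 ± 0.08), the Polycomb readers CBX8 (1.14 ± 0.12) and CBX2 (1.10 ± 0.15), JARID2 (1.09 ± 0.13) and ARID1A (0.76 ± 0.08) rose. PHF19 (-0.96 ± 0.12), PHF1 (-0.59 ± 0.08) and the neuronal BAF subunit DPF1 (-0.89 ± 0.19) fell. MYCN, an oncogene of neuroblastoma, was at 4.19, 4.17, 4.65, 4.34 and 3.85 in knockdown and 8.61, 7.61, 7.08, 9.27 and 8.24 in rescue libraries (log2 3.92 ± 0.34), and the oncofetal RNA-binding gene LIN28B at 7.18, 5.12, 7.28, 7.66 and 7.86 and 10.98, 7.28, 9.79, 10.28 and 9.87 (log2 2.62 ± 0.25), with replicate 2 the lowest in both groups and its rescue value inside the knockdown range. HMGA1, a chromatin architecture gene, fell (-2.12 ± 0.18).

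Of 767 tested lincRNAs 199 rose (25.9%) and 211 fell (27.5%), against 27.3% and 32.9% of 14234 protein-coding genes. Of 959 antisense genes 206 rose (21.5%) and 185 fell (19.3%). LINC00973 was at 10.95, 11.01, 10.74, 10.51 and 11.12 in knockdown and 6.97, 6.15, 8.34, 7.34 and 8.63 in rescue libraries (log2 -3.38 ± 0.35), and LINC00702 (-2.46 ± 0.22) fell and LINC00504 (2.40 ± 0.15) rose. Antisense transcripts followed neighbouring genes in sign where both are named, as for FEZF1-AS1 (3.59 ± 0.33) beside the zinc finger gene FEZF1 (log2 3.52), NR2F1-AS1 (-3.26 ± 0.18) beside NR2F1 and LOXL2-AS1 (-2.39 ± 0.30) beside LOXL2. TRHDE-AS1 (3.73 ± 0.20) and CPB2-AS1 (2.76 ± 0.20) rose. The counting is not stated to use strand, so reads of an antisense gene and its partner cannot be told apart.

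Set against the control libraries, the rescue ended short of, at or beyond the starting level. Of 18040 genes 6787 (37.6%) differed from control, 3660 higher (20.3%) and 3127 lower (17.3%), and at least 2-fold 1166 were higher (6.46%) and 341 lower (1.89%), in 4 pairs. With quantile scaling 3036 were higher and 3748 lower. CYP4F22 (log2 0.01 ± 0.12, adjusted p = 0.977), SMARCC1 (0.01 ± 0.07, adjusted p = 0.958) and PRKCB (-0.20 ± 0.09, adjusted p = 0.123) did not pass the test against control. CD44, a hyaluronan receptor, was at 16.33, 16.53, 16.06, 16.11 and 16.27 in knockdown, 12.86, 12.51, 13.30, 12.74 and 13.77 in rescue and 9.29 to 10.09 in control libraries, log2 3.31 ± 0.17 above control (adjusted p = 8.53e-05). CDH13 (3.95 ± 0.23), IGFBP7 (3.41 ± 0.18) and LIF (2.58 ± 0.41) also remained above control, and LIN28B (-2.61 ± 0.39) and SYNPR (-1.92 ± 0.25) below. Other genes went beyond control. IGSF21 exceeded it by log2 4.64 ± 0.30 (adjusted p = 0.000156), IGF1 by 1.91 ± 0.08 (adjusted p = 5.34e-05), SV2B by 1.83 ± 0.18 and CALCB by 1.46 ± 0.20. CCNA1 (1.68 ± 0.16) and ID4 (1.31 ± 0.10) rose although control (7.30 to 8.06 and 10.82 to 11.57) and knockdown libraries (7.003 to 8.29 and 11.10 to 11.21) covered like ranges. HMGA1 (-0.60 ± 0.15) and INSIG1 (-0.61 ± 0.15) ended below control after a fall from knockdown. KIT, at 9.12 to 9.97 in control and 8.19 to 8.71 in knockdown libraries, was at 6.71 to 8.37 in the rescue, which overlapped knockdown (log2 -2.41 ± 0.34 against control, adjusted p = 0.00197).

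**Figure D5:**
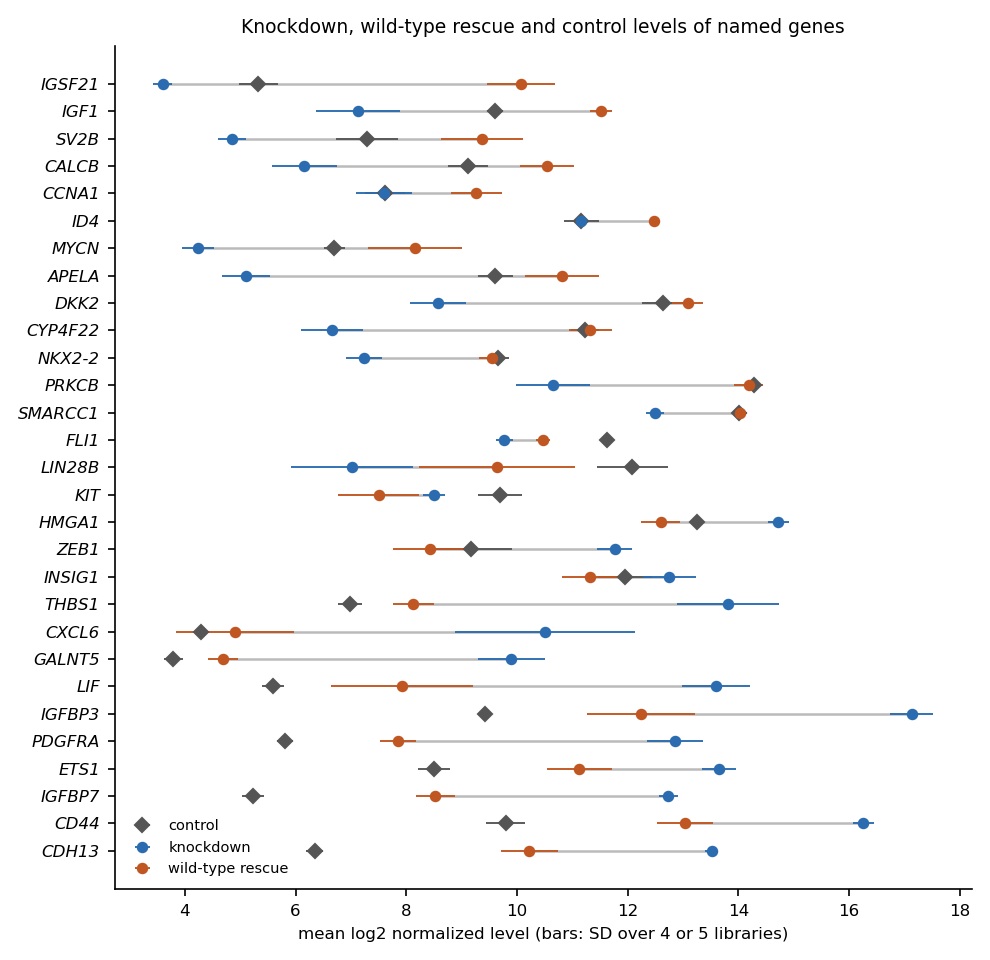
Mean log2 normalized levels (bars SD) of 29 named genes in knockdown and wild-type rescue libraries (circles, 5 each, joined in grey) and control libraries (diamonds, 4). The rescue passes control for IGSF21, IGF1, SV2B and CALCB, is close to it for CYP4F22, PRKCB and SMARCC1, and stops between knockdown and control for LIF, PDGFRA, CD44 and CDH13.

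The size of the effect varied between pairs. The standard deviation of the differences over all genes was 1.14, 1.23, 0.879, 1.12 and 0.965 in pairs 1 to 5, lowest in pair 3, where EWS/FLI-activated genes had a mean difference of 1.17 against 1.47 to 1.95 in the others. The FLI1 difference in that pair was 0.36, against 0.61 to 1.02 in the others. In pair 3 the knockdown library was the highest of its group for FLI1, APELA and IGF1, and the rescue library was the lowest for FLI1 and APELA. Its part in the list results was not tested beyond leaving the pair out, which gave 9036 called genes in place of 10115. Leaving out replicate 1, 2, 4 or 5 gave 8593, 8694, 8503 and 10100 called genes, so a loss of calls was not particular to pair 3.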

How the data were processed

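The authors deposited 1 table of log2 levels, normalized between libraries (range -4.1 to 20.2). Per the submitters' processing notes, bcl2fastq, STAR 2.5.2b, HTSeq, DESeq2 and build hg19 were used, with no role or order given, and the values look like a regularized transformation, which the labels do not state. Per the labels' protocols, total RNA went into ScriptSeq libraries. Gene symbols came from a reference list of gene names and, where it gave none, from GENCODE 29, which also gave the gene types. A symbol was found for 39880 of 57820 genes. In all libraries 17358 genes were listed at 0, and the level filter left them out of the test.

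The difference of each gene was fitted with limma 3.58.1 (R 4.3.3, moderated test with a mean-variance trend) on the 10 knockdown and wild-type rescue libraries, with the replicate number, which the labels name as a batch, as a block. The comparison with control used the 4 shared batches. The pairing comes from the labels. Same-numbered libraries had deviation correlations of 0.326, -0.098, 0.325, 0.074 and -0.111. No 2 libraries held the same values. The fit was also run on simulated data with 18040 genes, of which only a small share was changed. It recovered 29.9%, 62.7% and 92.4% of genes changed by log2 0.5, 1 and 2, with 12 false calls. The data called 56.1% of genes, and adjusted p depends on that share, so these rates do not carry over to the comparison. Alternatives were the fit without the block, fits on all 21 libraries, no or stricter level filters, median or quantile scaling, array weights, no trend, and each replicate left out. Log2 values carry no counts, so no count test was run.

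The genes named were drawn from FLI1 and EWSR1, the 12 largest called rises and 12 largest falls with a mean of at least 100 on the linear scale, 1 direction in all 5 pairs and no overlap, up to 4 called members per list and up to 3 against its majority, the 4 largest rises and falls of LINC and AS1 transcripts, and 7 genes that were to be named for their role. Others, such as IGFBP5 and NPY, were chosen after their values were seen. The comparison, the genes and the lists were chosen with earlier results of these data known. Promoter windows came from RefSeq (GRCh38.p14), and no coordinates were converted from hg19. Delta 22 and mut9 libraries entered only the alternative fits and the level filter. Some items withheld for evaluation are not reported here.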

Additional observations from a re-analysis of the deposited data

Results flagged for a closer look

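A library was marked where its log2 level lay far from the other 4 of its group by Dixon's criterion. Of 614 groups of 5 libraries tested, 31 were marked (5.05%), and chance marks about 1 in 20. Wild-type rescue replicate 3 was far above the other rescue libraries for CCL2 (11.9), EHF (4.81), ETV7 (5.74), HLA-B (14.95), IFI27 (11.73), MX2 (11.35), SOD2 (14), TAP1 (12.66) and WARS1 (14.41) and for the mean of the NF-kB list (10.16). It was far below them for CAV1 (16.05). The neuropeptide list mean was low in rescue replicate 1 (7.82).

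Among the other rescue libraries, replicate 1 was far above the others for COL11A2 (6.97). Replicate 1 was far below the others for GALNT5 (4.22). Replicate 2 was far above the others for CALCB (11.4). Replicate 2 was far below the others for DPF1 (6.46). Replicate 5 was far below the others for TRAV4 (3.01).

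Among knockdown libraries, replicate 1 was far above the others for EPHA5 (7.86) and ZEB1 (12.32). Replicate 2 was far above the others for YWHAZ (15.79). Replicate 2 was far below the others for LIN28B (5.12) and MFAP4 (8.58). Replicate 3 was far above the others for ACVR2B (8.62) and MX2 (13.31). Replicate 5 was far above the others for ETS1 (14.19) and HOXB9 (9.87). Replicate 5 was far below the others for MT-CO2 (13.31). Replicate 4 was far above the others for TRGC2 (1.71). The mean of the matricellular list was high in knockdown replicate 4 (10.35), and those of the chromatin (11.27) and reference gene lists (13.27) were low in knockdown replicate 1.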

How the results depend on the processing

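With the 260 genes named, 3559 of 3612 values kept direction and side of the threshold, and 245 genes kept both in every setting. Without the replicate block, 10400 genes were called in place of 10115, and the pairing by number moved no count of all genes past 1.5 times. With a mean of at least 100, 12226 genes were tested in place of 18040. Of these 638 were higher and 1473 lower at least 2-fold, against 1219 and 2296 in the main fit. The 2-fold rises dropped by a larger share than the genes tested. Of 17 potassium channels tested with that filter 8 rose, against 19 of 44 in the main fit. Leaving out a replicate gave 8503 to 10100 called genes, and 4758 to 5469 against control.

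Of 658 list counts over 47 lists, 624 were within 1.5 times. Median and quantile scaling gave 22 and 19 mitosis genes higher, 30 and 34 ribosomal genes higher, 13 and 12 histones higher, 2 and 2 cyclin genes lower with 7 and 6 higher, 11 and 11 serine and one-carbon genes higher, and 3 and 2 reference genes lower. Without the replicate block and in the fits on all 21 libraries (with and without block), cyclin genes lower were 8, 8 and 8, and histones higher 8, 8 and 9. The blocked fit on all 21 libraries gave 17 ribosomal genes higher, array weights gave 11 histones, and no trend gave 6 ribosomal genes and 3 cyclin genes. Leaving out 1 replicate gave 19 (without replicate 1) to 38 (without 5) replication genes higher, 3 to 5 cyclin genes lower (3 without 1, 2 or 4), 7 (without 2) to 14 sterol genes higher, 3 to 14 ribosomal genes higher (4, 3 and 5 without 1, 2 and 4), 3 (without 1, 2 or 4) to 15 (without 5) histones higher, and 3 (without 4) to 5 reference genes lower. The causes were not tested.

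EWSR1 passed at 0.204 without the replicate block and in both fits on all 21 libraries, at 0.361 under both scalings, at 0.24 with array weights and at 0.292 without replicate 5, with a range of 0.138 to 0.292 when 1 replicate was left out. MYC turned to 0.099, 0.087 and 0.027 under median scaling, quantile scaling and without replicate 5 (-0.112 to 0.027 when 1 replicate was left out). Calls lost without at least 1 replicate were those of COL11A2, FOXO1, HPRT1, NFIB, RPL5, TSC22D3, FASN, HOXD1, IL11RA, IGHV1-3 and TK1. COL11A2 and FOXO1 lost theirs without the replicate block, where ROBO1 gained one, and CCND1 gained one under both scalings. FOXO1 and TK1 lost theirs under both scalings, and HOXD1 with median scaling. With 5 pairs and no counts, small changes of low genes are the least certain.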

Other observations

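Genes of antigen receptors, which lymphocytes rearrange and use, were called in both directions in this sarcoma line. All 5 tested variable segments of the T cell receptor alpha locus were higher in the wild-type rescue, by log2 1.35 to 3.85, and were named after their values were seen. TRAV1-2 was at 5.39, 5.97, 7.34, 6.19 and 6.35 in knockdown replicates 1 to 5 and 9.85, 10.40, 10.09, 10.16 and 9.97 in rescue replicates 1 to 5 (log2 3.85 ± 0.25, limma adjusted p = 3e-05). TRAV3 was at 3.49, 4.23, 4.92, 3.90 and 4.01 and 7.29, 7.98, 7.31, 7.85 and 7.07 (log2 3.39 ± 0.25). IGHG4, an immunoglobulin heavy chain constant gene with near-identical relatives, was at 4.59, 3.83, 4.24, 4.12 and 3.64 and 8.95, 9.82, 9.19, 8.75 and 8.82 (log2 5.02 ± 0.24). No rescue library overlapped a knockdown library for these 3 genes. Of 3 T cell receptor constant genes, TRGC1 (log2 2.14) and TRGC2 (0.70) rose and TRDC (-1.88) fell, and of the immunoglobulin variable genes IGHV1-3 (0.71) rose and the pseudogene IGKV1OR-2 (-1.11) fell. TRGC2 was at most 1.71 in the knockdown libraries, under the test level of 10 on the linear scale, so its rise is uncertain. The values do not show whether the reads come from rearranged receptor transcripts, from unrearranged segments or from the other strand.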
